A study of Mus musculus with 6 samples.

Results

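The centromere, kinetochore and spindle checkpoint genes described here are 39 named genes of chromosome segregation, matched by symbol among the 49671 gene identifiers of the count tables. All 39 were found and all 39 passed the filter on low counts, which 13996 genes passed. The list was selected on the differences of Hjurp and Bub1 in BiTS against isotype and BiTS against BiTS(mut) in these same counts, and the question is whether the other 37 genes moved with them. Cultures were labelled as splenocytes, with naive primary CD8 T cells of OT-I genotype as the cell type. OT-I cells carry a transgenic T cell receptor for the ovalbumin peptide SIINFEKL. In every group, antigen-presenting cells displayed that peptide to the cells, and RNA was taken after 48 h. The groups were BiTS (libraries BiTS-3 and BiTS-6), BiTS(mut) (mut-2 and mut-5) and isotype control (iso-1 and iso-4), with 2 libraries each. BiTS is a bispecific T cell silencer that brings the inhibitory receptor LAG-3 to the T cell receptor. The labels do not say what is changed in BiTS(mut), nor whether the libraries of a group came from separate mice or cultures, so the p-values below speak only of spread between libraries, which may be technical.

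The centromere is marked by nucleosomes that carry the histone H3 variant CENP-A, and HJURP is the chaperone that places newly made CENP-A there. On this chromatin sits the inner kinetochore, a constitutive network of CENP proteins, which holds the outer kinetochore that grips spindle microtubules. The spindle checkpoint kinases and adaptors delay anaphase until every kinetochore is attached, and the chromosomal passenger complex corrects faulty attachments. Most of these genes are transcribed late in the cell cycle, and CD8 T cells divide rapidly after activation by antigen.

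Gene totals ran from 10813123 to 15239077 counts per library, and the lowest count of any of the 39 genes in any library was 96. The title numbers split the libraries into a first set (BiTS-3, mut-2 and iso-1) and a second set (BiTS-6, mut-5 and iso-4). The labels do not say what the numbers mark, but 52.7% of the 13996 tested genes differed between the sets. Calls in each treatment comparison are therefore given both unblocked and blocked by set. Log2 fold changes and their standard errors are from the blocked fit unless marked otherwise. Unblocked, the errors were larger, in BiTS against isotype 0.16 rather than 0.08 for Cenpa and 0.25 rather than 0.17 for Cenpw. The 10 T cell markers together held 2041 to 2762 CPM, the count relative to the TMM-scaled gene total of its library. The 19 dendritic cell markers held 1584 to 1759 CPM in the second set and 2610 to 3157 CPM in the first. Siglech was at 0 in all 6 libraries and Cd209a at 0 in 5. Ccr7 alone held 434 to 774 CPM of these sums, and Batf3 was higher in the second set in each treatment. Which cells the reads of each marker came from was not tested. The 13 macrophage and monocyte markers held 28.5 to 43.0 CPM, and of the 8 B cell markers only Ighm and Cd79b passed the filter. With BiTS against isotype and the block, 6 of the 16 tested dendritic cell markers were called lower, that is, at a Benjamini-Hochberg adjusted p under 0.05 in edgeR (median -0.33) and 3 of the 10 T cell markers higher (median 0.17). Against BiTS(mut), 5 of the 16 dendritic cell markers were called lower (median -0.27) and 1 of the 10 T cell markers was called lower (median 0.16). The part of this in the results below was not tested. In bulk RNA, fewer dividing cells and less RNA per cell cannot be told apart.

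Per exonic length, Hjurp had the highest level of the 39 genes, with a mean of 121.8 FPKM (CPM per kilobase of exon, computed from the counts) over the 6 libraries. Incenp, the scaffold of the chromosomal passenger complex, followed at 70.0 FPKM, then its kinase Aurkb at 47.0 FPKM and the mitotic kinase Plk1 at 40.5 FPKM. Cenpa, which encodes the histone that HJURP carries, stood at 33.4 FPKM and Bub1 at 34.9 FPKM. The median of the 39 genes was 10.4 FPKM, 14 genes were above 20 FPKM, and the lowest were Cenpw at 3.06 FPKM and the centromeric cohesion protector Sgo2a at 3.08 FPKM. Library levels of Bub1, Cenpa, Ndc80 and Plk1 overlapped, so these neighbours in the order did not differ beyond their spread.

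**Figure D1:**
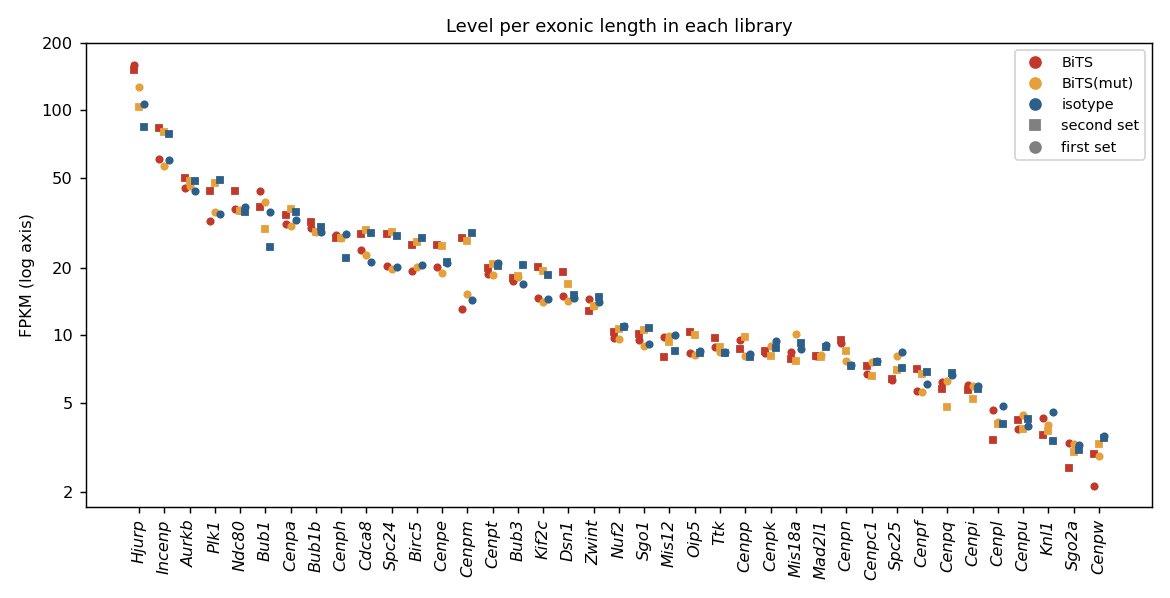
Level of each of the 39 genes in each of the 6 libraries, in FPKM on a log axis, ordered by the mean over libraries; colours mark the groups, squares the second set and circles the first set. Hjurp lies above all other genes in every library, and its 2 BiTS libraries lie above its BiTS(mut) and isotype libraries.

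The 250 bases upstream of the RefSeq start are shown for Hjurp and Bub1, the genes that were higher with BiTS, and for Plk1 and Kif2c, mitotic genes that were not. They lie at chr1:88277580-88277829 (minus strand), chr2:127831860-127832109 (minus strand), chr7:122159185-122159434 (plus strand) and chr4:117178773-117179022 (minus strand) of GRCm38.p6. Capitals mark the cell cycle genes homology region in its form TTTGAA or the reverse complement TTCAAA, its variant TTTAAA, and the CCAAT box or its reverse complement ATTGG, all searched on both strands. The first motif is known as the site of the MuvB complexes that time mitotic genes, and the CCAAT box as the site of NF-Y.
Hjurp: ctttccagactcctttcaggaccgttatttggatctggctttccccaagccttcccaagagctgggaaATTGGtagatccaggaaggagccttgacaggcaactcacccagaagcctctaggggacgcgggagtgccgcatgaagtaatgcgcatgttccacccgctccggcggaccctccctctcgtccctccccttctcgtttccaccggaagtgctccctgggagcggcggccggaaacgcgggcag
Bub1: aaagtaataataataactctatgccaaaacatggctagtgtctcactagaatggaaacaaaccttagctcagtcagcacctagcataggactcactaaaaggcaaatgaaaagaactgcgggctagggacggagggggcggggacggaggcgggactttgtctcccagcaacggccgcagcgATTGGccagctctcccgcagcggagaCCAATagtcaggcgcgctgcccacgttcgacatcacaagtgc
Plk1: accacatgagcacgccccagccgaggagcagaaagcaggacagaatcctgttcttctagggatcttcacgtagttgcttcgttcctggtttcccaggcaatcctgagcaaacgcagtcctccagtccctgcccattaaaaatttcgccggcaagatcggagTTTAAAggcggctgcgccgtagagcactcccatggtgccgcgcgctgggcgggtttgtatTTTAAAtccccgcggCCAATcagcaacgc
Kif2c: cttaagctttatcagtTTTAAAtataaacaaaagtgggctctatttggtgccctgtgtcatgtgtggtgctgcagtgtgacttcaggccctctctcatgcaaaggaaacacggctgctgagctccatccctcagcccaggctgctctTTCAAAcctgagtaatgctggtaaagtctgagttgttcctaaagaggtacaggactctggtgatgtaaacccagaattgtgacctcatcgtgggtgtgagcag

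In these windows Hjurp held 1 CCAAT box, 182 bases before the start, and Bub1 held 2, at 68 and 42 bases before it. Plk1 held TTTAAA at 89 and 29 bases and a CCAAT box at 14 bases before its start. Kif2c held TTTAAA at 234 and TTCAAA at 103 bases before the RefSeq start used. That start and its window lie inside the gene as counted, whose upstream end on the minus strand is at 117182639. The Kif2c window is therefore not next to that end, unlike those of Hjurp, Bub1 and Plk1. Promoters were matched for 36 of the 39 genes, with 40 windows. A CCAAT box was present in 25 of the 40 windows (62.5%) and in 33.8% of all 32851 windows in the table. TTTGAA or TTCAAA was present in 6 windows (15.0%) against 16.0% of all windows, and TTTAAA in 8 (20%) against 12.1%. These were windows of 5 and 8 genes, so most of the 36 genes held neither form. Bub1b and Ttk, which were not called, lacked both as Hjurp and Bub1 did, and Cenpn held TTCAAA. Whether any motif goes with the treatment differences was not tested. A match is a run of letters and not a measured binding site.

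Hjurp was higher with BiTS than with isotype, and with BiTS than with BiTS(mut). It stood at 1322 and 1257 CPM in BiTS-3 and BiTS-6, at 1055 and 862 CPM in mut-2 and mut-5, and at 893 and 701 CPM in iso-1 and iso-4. Both BiTS libraries lay above all 4 others, and BiTS(mut) and isotype overlapped. Within each set the order was BiTS above BiTS(mut) above isotype. With the block, the log2 fold change of BiTS over isotype was 0.71 ± 0.08 (SE), or 1.63-fold, and that over BiTS(mut) was 0.44 ± 0.08, or 1.35-fold. Unblocked, they were 0.69 ± 0.19 and 0.43 ± 0.19. These are the values that put Hjurp on the list, so they are a description. Hjurp lies on chromosome 1 from 88262471 to 88277633 (mm10, minus strand). It shared no exonic base with another gene of the tables, and no near-identical transcript of another gene was found for it or for Bub1.

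Bub1, the checkpoint kinase that recruits the other checkpoint proteins to kinetochores, followed the same order at a smaller size. It stood at 190.4 and 162.0 CPM in BiTS-3 and BiTS-6, at 170.2 and 129 CPM in mut-2 and mut-5, and at 154 and 107 CPM in iso-1 and iso-4. Both BiTS libraries lay above both isotype libraries, while BiTS and BiTS(mut) overlapped. The log2 fold change with the block was 0.45 ± 0.09 over isotype, 1.36-fold, and 0.25 ± 0.09 over BiTS(mut), 1.19-fold. Unblocked, they were 0.43 ± 0.24 and 0.24 ± 0.24. It lies on chromosome 2 from 127801122 to 127831865 (mm10, minus strand). Bub1 was no longer called against isotype without BiTS-6, where it was at 0.33.

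**Figure D2:**
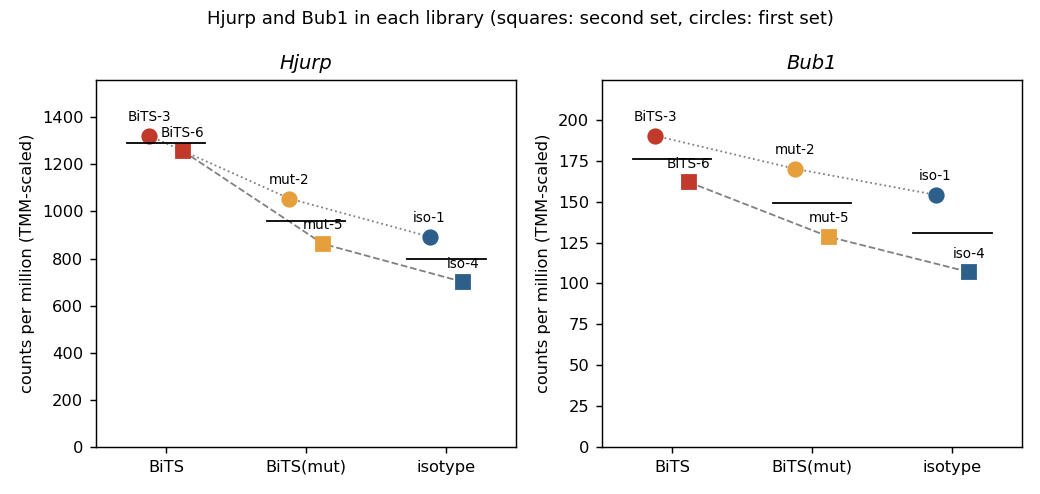
Hjurp (left) and Bub1 (right) in each library, in CPM after TMM scaling with the axis from 0; bars mark the mean of the 2 libraries of a group, squares and the dashed line the second set, circles and the dotted line the first set. Within each set the BiTS library is the highest and the isotype library the lowest for both genes.

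In BiTS against isotype, the unblocked edgeR fit called 0 of the 39 genes at a Benjamini-Hochberg adjusted p under 0.05, where 0% of all tested genes were called. At an unadjusted p under 0.05 it had 1 gene, Hjurp, against 1.26% of all tested genes, and DESeq2 called 0. Blocked by set, the fit called 2, Hjurp and Bub1, both higher, where 3.4% of all tested genes were called, and 5 of the 39 genes were at an unadjusted p under 0.05, against 14.8%. Because the list was drawn up from this contrast, nothing is read from these shares.

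In BiTS against BiTS(mut), the unblocked edgeR fit called 0 of the 39 genes, with 0 at an unadjusted p under 0.05 against 0.543% of all tested genes, and DESeq2 also called 0. Blocked by set, it called 1, Hjurp, where 0.972% of all tested genes were called, 0.272% higher and 0.7% lower, and 2 genes were at an unadjusted p under 0.05, against 8.45%. The call of Hjurp was lost without BiTS-6 (0.31), without mut-2 (0.48) and without mut-5 (0.40). With the ERCC spike-in transcripts as the scale, 0 of the 39 genes were called in either comparison with BiTS. The adjusted p was then alike for all 39 genes within a comparison, Hjurp included, so nothing is read from this 0. Hjurp was then at 0.77 over isotype and 0.62 over BiTS(mut) with the block. The median of all tested genes was at 0.05 and 0.18 on that scale. Hjurp lay 0.72 and 0.44 above it, against log2 fold changes of 0.71 and 0.44 with TMM scaling. The spike-in share of the counts ran from 3.36% in mut-2 to 7.54% in mut-5.

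None of the other 37 genes was called in either comparison with BiTS, with or without the block. Their log2 fold changes of BiTS over isotype ran from -0.48 to 0.36, with 15 above 0, 22 below 0 and a median of -0.03, and the median of all tested genes was -0.005. With the block, standard errors of the 39 genes were 0.08 to 0.19, with a median of 0.10, against a log2 fold change of 0.45 for Bub1. The summed level of the 38 genes other than Hjurp was 2471 and 2775 CPM in BiTS-3 and BiTS-6, 2421 and 2714 CPM in mut-2 and mut-5, and 2474 and 2676 CPM in iso-1 and iso-4. Within each set these sums thus differed less between treatments than the sets did from each other.

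**Figure D3:**
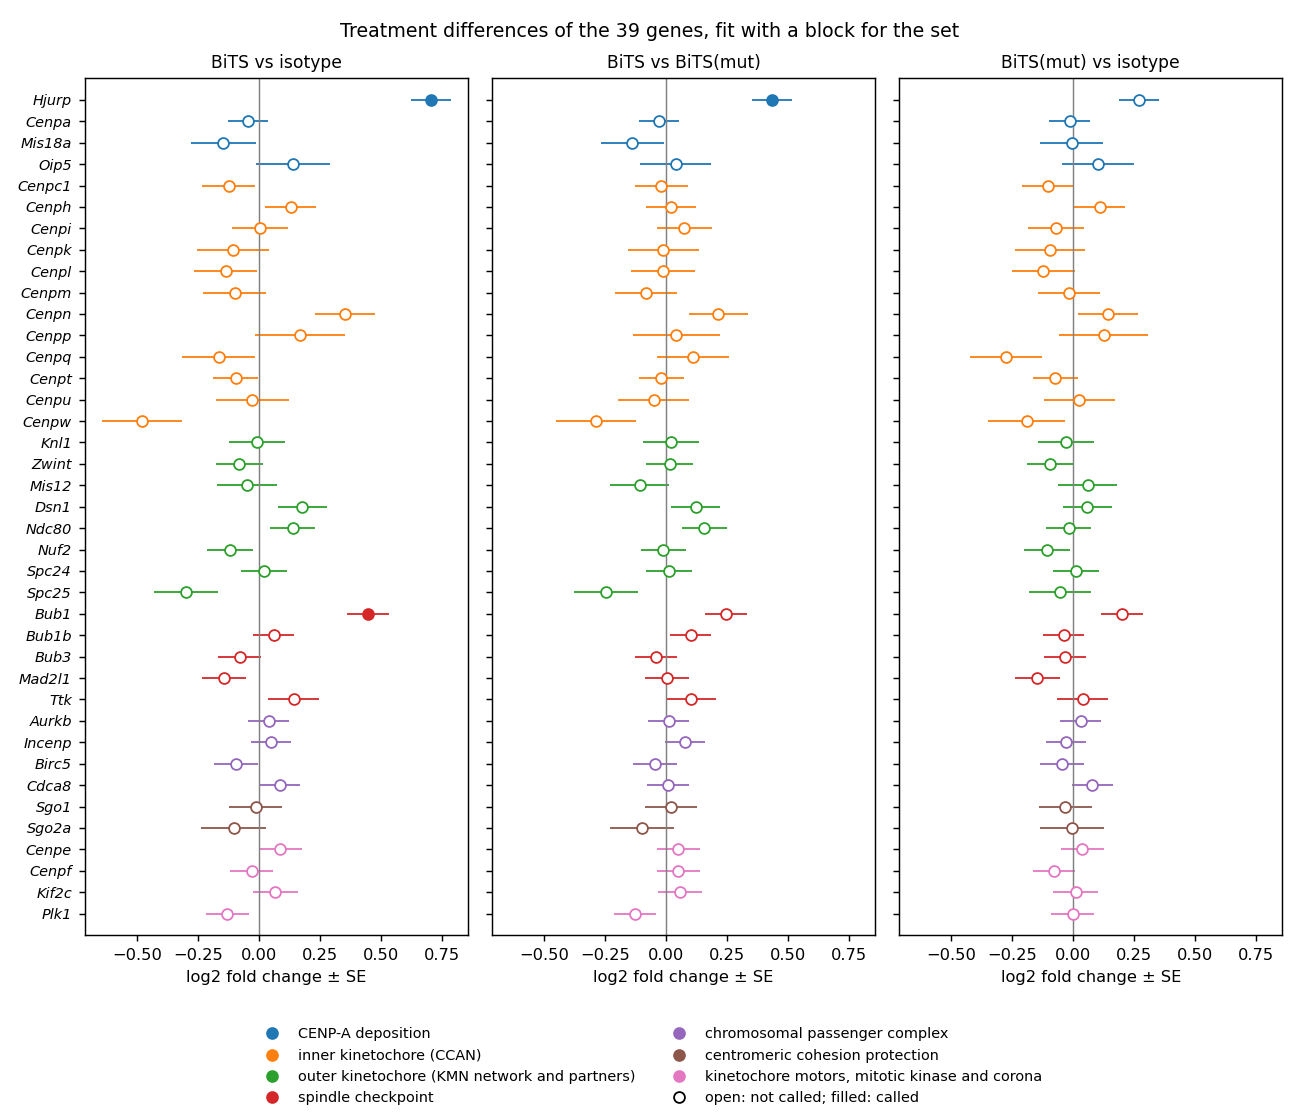
Log2 fold change with its standard error for each of the 39 genes in BiTS against isotype, BiTS against BiTS(mut) and BiTS(mut) against isotype, from the fit with a block for the set; colours mark the role, and filled points were called at an adjusted p under 0.05. Hjurp and Bub1 stand to the right of the other genes in the left panel, where the other 37 lie between -0.48 and 0.36.

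Among the CENP-A deposition genes, none of the partners of Hjurp was called. Cenpa stood at 183 and 202 CPM with BiTS, 180.1 and 213 CPM with BiTS(mut) and 190.1 and 206 CPM with isotype, and the 3 groups overlapped. Its log2 fold change of BiTS over isotype was -0.04 ± 0.08. Mis18a, a subunit of the Mis18 complex that prepares the centromere for HJURP, stood at 24.0 and 22.4 CPM with BiTS, 29.0 and 22.0 CPM with BiTS(mut) and 24.8 and 26.4 CPM with isotype. Both BiTS libraries were below both isotype libraries, at -0.15 ± 0.13, and it was not called. Oip5, which encodes the Mis18 beta subunit, stood at 14.9 and 18.3 CPM with BiTS, 14.5 and 17.8 CPM with BiTS(mut) and 15.1 and 14.8 CPM with isotype. Its groups overlapped, at 0.14 ± 0.15, with log2 ratios of BiTS over isotype of -0.02 in the first set and 0.31 in the second. Of its exonic bases, 172 are shared with Nusap1 on the opposite strand. Reads of Nusap1 there cannot be told apart from those of Oip5 because the strand setting is not given.

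The 12 inner kinetochore genes had a median log2 fold change of BiTS over isotype of -0.10, with 4 above 0 and 8 below 0. The ends of the range were Cenpn, whose protein reads the CENP-A nucleosome, and Cenpw, a histone-fold subunit. Cenpn stood at 30.5 and 31.3 CPM with BiTS, 25.3 and 28.01 CPM with BiTS(mut) and 24.2 and 24.1 CPM with isotype, at 0.36 ± 0.12. Its 3 groups did not overlap, and it kept the order BiTS above BiTS(mut) above isotype in both sets, but it was not called. Cenpw ran the other way, at 9.04 and 12.5 CPM with BiTS, 12.2 and 13.8 CPM with BiTS(mut) and 14.9 and 14.7 CPM with isotype, or -0.48 ± 0.17. It was called only without iso-4, and parts of its transcripts are near-identical to those of other genes, Krit1 among them. The remaining 10 ran from -0.16 (Cenpq) to 0.17 (Cenpp).

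The 8 outer kinetochore genes had a median of -0.03 for BiTS over isotype. Spc25 and Spc24 encode partners in the inner end of the NDC80 complex, the main microtubule binder, and did not run together. Spc25 stood at 20.1 and 20.4 CPM with BiTS, 25.7 and 22.2 CPM with BiTS(mut) and 26.9 and 22.9 CPM with isotype, with both BiTS libraries below the other 4, at -0.30 ± 0.13 over isotype and uncalled. Spc24 was at 0.02 ± 0.10, and the other subunits Ndc80 and Nuf2 at 0.14 ± 0.09 and -0.12 ± 0.09. Knl1, the scaffold to which BUB1 is recruited, was at -0.01 ± 0.12, its partner Zwint at -0.08 ± 0.10, and the Mis12 complex genes Mis12 and Dsn1 at -0.05 ± 0.12 and 0.18 ± 0.10.

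The other 4 spindle checkpoint genes were not called either. Bub1b, which encodes the BUB1-related checkpoint protein BUBR1, stood at 128 and 136 CPM with BiTS, 123 and 123 CPM with BiTS(mut) and 123 and 130.1 CPM with isotype, at 0.06 ± 0.08 over isotype. Bub3, the shared binding partner of both, was at -0.08 ± 0.09, and Mad2l1, which encodes MAD2, at -0.14 ± 0.09. Ttk, the kinase MPS1 that starts checkpoint signalling, stood at 43.7 and 47.6 CPM with BiTS, 41.5 and 43.4 CPM with BiTS(mut) and 41.4 and 41.1 CPM with isotype. Its groups did not overlap and kept the order of Bub1 in both sets, but its log2 fold change of 0.14 ± 0.11 was little over its error.

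The remaining groups centred near 0. The 4 chromosomal passenger genes, Aurkb, Incenp, Birc5 (survivin) and Cdca8 (borealin), ran from -0.09 to 0.09 for BiTS over isotype. The shugoshins Sgo1 and Sgo2a, which shield centromeric cohesin, were at -0.01 ± 0.11 and -0.10 ± 0.13. The kinesins Cenpe and Kif2c, the large corona protein gene Cenpf and the kinase Plk1 ran from -0.13 to 0.09.

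Within the sets, the log2 ratio of BiTS-3 over iso-1 was 0.57 for Hjurp and 0.30 for Bub1, and that of BiTS-6 over iso-4 was 0.84 and 0.60. Of the 39 genes, 11 were above 0 in both sets, 16 below 0 in both and 12 of opposite sign, while 28.2% of all tested genes were above 0 in both and 27.9% below 0 in both. The order BiTS above BiTS(mut) above isotype in both sets was kept by 4 of the 39 genes, Hjurp, Bub1, Cenpn and Ttk, and by 6.52% of all tested genes. The opposite order was kept by 3, Cenpw, Spc25 and Birc5, and by 5.82% of all tested genes. Both BiTS libraries lay above both isotype libraries for 5 of the 39 genes, against 11.3% of all tested genes. These were Hjurp, Bub1, Cenpn, Cenpp and Ttk. Both BiTS libraries lay below both isotype libraries for 9 of the 39, a larger share than the 9.5% of all tested genes. The BiTS libraries lay above both BiTS(mut) libraries for 6 of the 39, Hjurp among them, against 8.71% of all tested genes. They lay below both BiTS(mut) libraries for 2 of the 39, against 7.85%. The list was selected on Hjurp and Bub1 being higher with BiTS, so nothing is read from the shares of genes higher with BiTS.

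**Figure D4:**
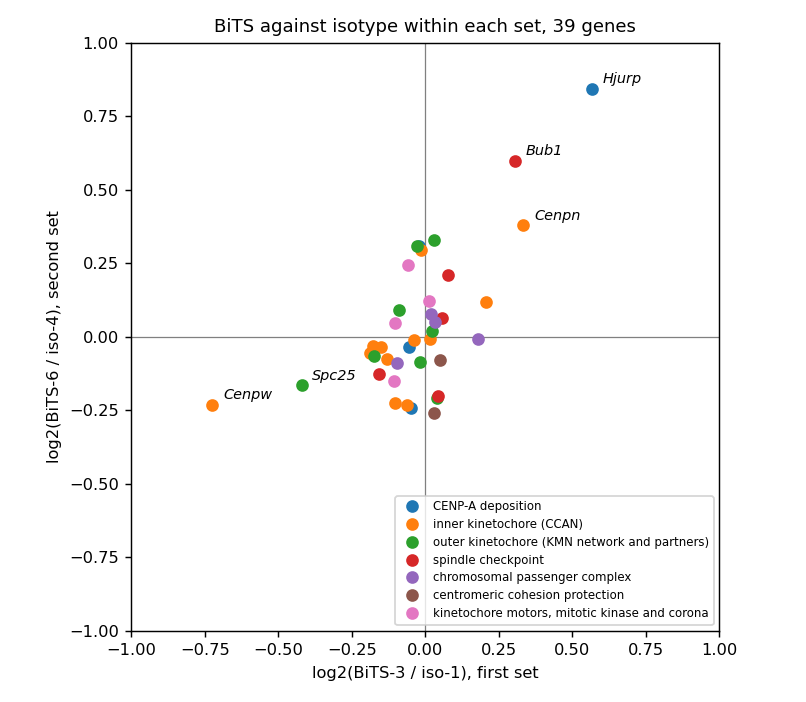
Log2 ratio of BiTS to isotype in the first set (horizontal, BiTS-3 over iso-1) and in the second set (vertical, BiTS-6 over iso-4) for each of the 39 genes, coloured by role. Hjurp at 0.57 and 0.84, Bub1 at 0.30 and 0.60 and Cenpn at 0.33 and 0.38 lie to the upper right of the other genes, and Cenpw at -0.72 and -0.23 lies farthest left.

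BiTS(mut) against isotype shares its isotype libraries with the BiTS comparison, and asks what remains when BiTS is changed. Hjurp was at 0.27 ± 0.08 and Bub1 at 0.20 ± 0.09 with the block, and neither was called. Both genes were chosen partly for their low values in these isotype libraries, so these differences are a description too. The other 37 genes ran from -0.28 (Cenpq) to 0.14 (Cenpn). Of the 39 genes, 0 were called with or without the block by edgeR, with 2 and 0 at an unadjusted p under 0.05, and 0 by DESeq2, while 0.05% of all tested genes were called with the block (0.00714% higher and 0.0429% lower), 4.43% were at an unadjusted p under 0.05 with it and 0.293% without it. Both BiTS(mut) libraries lay above both isotype libraries for 2 of the 39 genes, Cenpn and Ttk, against 6.82% of all tested genes. They lay below both isotype libraries for 5 of the 39, a larger share than the 6.89% of all tested genes. Without iso-1, Hjurp was called at 0.35.

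In BiTS against isotype, 2 genes outside the 39 but in lists of mitotic genes were called higher with a log2 fold change of the size of that of Bub1 or above, again as a description. Cit, which encodes citron kinase of the cytokinetic midbody, was at 0.59 ± 0.09, and E2f2, a transcription factor of cell cycle entry, at 0.45 ± 0.09. Among the 24 tested spindle motor and cytokinesis genes, 2 were called higher, Cit and Numa1 (0.30 ± 0.08), and 1 lower, Kpna2 (-0.40 ± 0.09), with a median of 0.01. Among the 23 genes of mitotic entry 1 was called, E2f2, with a median of -0.02. Among 28 tested further centromere and kinetochore genes, 30 of the anaphase-promoting complex and cohesion, and 11 of condensin and chromosome structure, 0 were called by edgeR with the block. At an unadjusted p under 0.05 were 3, 1 and 2, and the medians were 0.02, 0.0001 and 0.03. The further centromere and kinetochore genes ran from -0.22 to 0.59, an upper end above Bub1 but not called. Of 25 DNA replication genes 1 was called, Rrm2, which was lower (-0.31 ± 0.08), with a median of -0.06. The shares called among all tested genes were 1.81% higher and 1.59% lower.

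Between the sets, a contrast that played no part in choosing the genes, 14 of the 39 genes were called, 11 higher and 3 lower in the second set, against 52.7% of all tested genes, and 17 were at an unadjusted p under 0.05, against 58%. Relative to the other genes of a library, 3 of the 4 genes of the chromosomal passenger complex and all 4 of the kinetochore motors, mitotic kinase and corona were higher in the second set, while Hjurp and Bub1 were lower; with the ERCC spike-in transcripts as the scale, both groups of genes lay below 0 as well. On that scale the median of all genes was -0.74, and of the 11 genes called higher only Cenpm remained above 0, at 0.17. None of these 11 was called on that scale, while Hjurp, Bub1 and Knl1 were called lower. Relative to that median, all 11 were above it and Hjurp, Bub1 and Knl1 below it.

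Cenpm, an inner kinetochore subunit, had the largest difference. It stood at 32.4, 31.5 and 34.2 CPM in BiTS-6, mut-5 and iso-4 of the second set, and at 15.8, 18.4 and 17.3 CPM in BiTS-3, mut-2 and iso-1 of the first. The sets did not overlap, and the log2 fold change was 0.93 ± 0.10, with an edgeR adjusted p of 2.11e-10. None of the other 11 inner kinetochore genes was called, and they ran from -0.24 (Cenpl) to 0.20 (Cenpw). With RLE size factors Cenpl was called as well. With spike-in scaling, where the median of all genes was -0.74, Cenpm was at 0.17 and not called. Cenpc1, Cenph, Cenpi, Cenpk, Cenpl and Cenpq were then called lower.

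Spc24 stood at 72.3, 73.7 and 71.4 CPM in BiTS-6, mut-5 and iso-4 and at 52.4, 50.5 and 51.6 CPM in BiTS-3, mut-2 and iso-1. It rose by 0.49 ± 0.08 on the log2 scale in the second set (edgeR adjusted p = 4.84e-07; -0.27 with spike-in scaling), while its partner Spc25 was at -0.14 ± 0.11 and was not called. Among the other outer kinetochore genes Dsn1 was higher (0.22 ± 0.08) and Knl1 lower (-0.26 ± 0.09). Knl1 stood at 30.7, 32.0 and 28.8 CPM in BiTS-6, mut-5 and iso-4 and at 36.5, 34.2 and 38.9 CPM in BiTS-3, mut-2 and iso-1, an edgeR adjusted p of 0.0202 and a call that was lost without BiTS-6 (-0.26), iso-1 (-0.18), iso-4 (-0.17) or with DESeq2 (-0.26).

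Of the 4 chromosomal passenger genes, 3 rose relative to other genes and Aurkb was at 0.13 ± 0.07, and all 4 lay below 0 with spike-in scaling. Incenp stood at 267, 258 and 253 CPM in BiTS-6, mut-5 and iso-4 and at 196, 182 and 194 CPM in BiTS-3, mut-2 and iso-1, at 0.45 ± 0.07 (edgeR adjusted p = 2.87e-07). Birc5 and Cdca8 were at 0.38 ± 0.07 and 0.35 ± 0.07. All 4 genes had non-overlapping sets, as did 27.9% of all tested genes in this direction.

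All 4 genes of the motors, mitotic kinase and corona group rose relative to other genes, and all 4 lay below 0 with spike-in scaling. Plk1 stood at 96.7, 105 and 107 CPM in BiTS-6, mut-5 and iso-4 and at 70.9, 78.0 and 76.4 CPM in BiTS-3, mut-2 and iso-1, at 0.46 ± 0.07 (edgeR adjusted p = 5.64e-07). Kif2c, a microtubule-depolymerising kinesin, stood at 87.8, 84.3 and 80.7 CPM in BiTS-6, mut-5 and iso-4 and at 63.6, 61.2 and 63.1 CPM in BiTS-3, mut-2 and iso-1, at 0.43 ± 0.07 (edgeR adjusted p = 3.89e-06). Cenpe and Cenpf were at 0.25 ± 0.07 each.

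**Figure D5:**
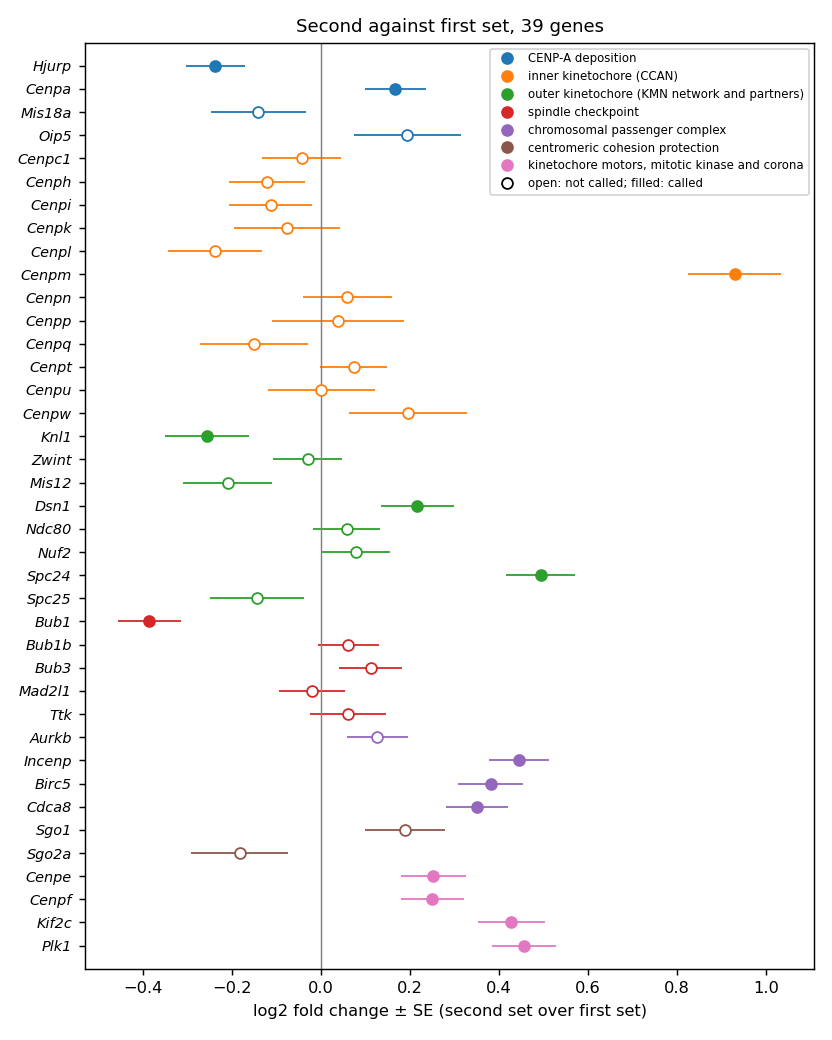
Log2 fold change with its standard error of the second over the first set for each of the 39 genes, coloured by role; filled points were called at an adjusted p under 0.05, with libraries scaled to their genes. Cenpm stands farthest right at 0.93 and Bub1 farthest left at -0.39; with spike-in scaling all values but that of Cenpm lie below 0.

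Bub1 stood at 162.0, 129 and 107 CPM in BiTS-6, mut-5 and iso-4 and at 190.4, 170.2 and 154 CPM in BiTS-3, mut-2 and iso-1, and fell by 0.39 ± 0.07 on the log2 scale in the second set (edgeR adjusted p = 9.49e-06). Hjurp fell by 0.24 ± 0.07 (edgeR adjusted p = 0.00239), and its call was lost without mut-2 (-0.21) or mut-5 (-0.21). For both genes the second set was the lower within each of the 3 treatments. The difference in Hjurp was -0.07 in log2 units with BiTS, -0.29 with BiTS(mut) and -0.35 with isotype, and in Bub1 it was -0.23, -0.40 and -0.53. Whether the set difference depends on the treatment was not tested, since each treatment has 1 library in each set. None of the other 4 checkpoint genes was called between the sets, at -0.02 to 0.11. Cenpa rose by 0.17 ± 0.07 (edgeR adjusted p = 0.0359; -0.59 with spike-in scaling), a call lost with DESeq2 (0.16), with no filter on low counts (0.14) and without BiTS-3 (0.17), BiTS-6 (0.18), mut-2 (0.13) or mut-5 (0.13). Mis18a and Oip5 were at -0.14 ± 0.11 and 0.19 ± 0.12.

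On the same scale, of the lists of other mitotic genes, 11 rose and 3 fell among the 28 further centromere and kinetochore genes, led by Clasp1 (-0.59 ± 0.07), Cenps (0.76 ± 0.12) and Cdca3 (0.47 ± 0.08). The anaphase-promoting complex and cohesion genes had 10 higher and 9 lower of 30, with the separase gene Espl1 at 0.67 ± 0.07 and the checkpoint target Cdc20 at 0.66 ± 0.07. The spindle motor genes had 10 higher and 4 lower of 24, and the mitotic entry genes 11 higher and 3 lower of 23, with the kinase gene Pkmyt1 at 0.78 ± 0.07 and Lin54, a subunit of MuvB, at -0.80 ± 0.09. The condensin and chromosome structure genes had 4 higher and 2 lower of 11, and the DNA replication genes 10 higher and 1 lower of 25. The proliferation marker Mki67 was at 0.22 ± 0.07. Among all tested genes, 25.9% were higher and 26.9% lower. Of the 16 tested dendritic cell markers 14 were lower and 1 higher in the second set, with a median of -1.01, and of the 10 T cell markers 6 were higher and 1 lower, with a median of 0.27. Their part in the set differences of the 39 genes was not tested.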

How the data were processed

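RNA of 6 libraries was analysed from raw counts per gene, 1 deposited table per library. Per the submitters' processing notes the build was mm10 and DESeq2 was used; aligner, counter, annotation and strandedness: not given in the sources used here. Symbols came from GENCODE M21, for 49326 of 49671 identifiers, and promoters from RefSeq (GRCm38.p6). The 92 ERCC spike-in transcripts stayed out of totals, filter and scaling.

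Genes were kept by filterByExpr, TMM set the scale, and two-sided quasi-likelihood tests came from edgeR 4.0.16 under R 4.3.3 with limma 3.58.1, Benjamini-Hochberg adjusted over 13996 genes, and called at an adjusted p under 0.05. All 6 libraries were fitted with 1 coefficient per group, without and with a term for the title-number set. The pairing by set rests on the data: deviations from group means correlated at 0.703, 0.779 and 0.763 within sets. The blocked fit had 2 residual degrees of freedom per gene and 45.95 shared over genes. DESeq2 was version 1.42.0. CPM and FPKM use TMM-scaled totals and the deposited exonic lengths. Copies were sought among GENCODE transcripts at an identity of at least 95% over at least 200 bases. The fits were tested on simulated counts.

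The 39 genes, the lists and the tests were chosen with earlier results of these data known. Named with every library's value were Hjurp, Bub1, Cenpa, Mis18a, Oip5, genes called with the block, and up to 5 called genes per direction between the sets. Cenpn, Cenpw, Spc25, Bub1b and Ttk were added after their values were seen. Alternatives were DESeq2, RLE size factors, other filters, spike-in scaling, leaving out each library, and only the 4 libraries compared.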

Additional observations from a re-analysis of the deposited data

How the results depend on the processing

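In BiTS against isotype, 0 of the 39 genes were called without the block under every alternative run. With the replicate block for the set, 2 were called, Hjurp and Bub1. The count was also 2 with DESeq2, with RLE size factors, with no filter, with genes kept at 5 CPM or more in 2 or more libraries and with only the 4 libraries compared. Of all 13996 tested genes, 476 were called with the block, 155 with DESeq2 and 461 with RLE size factors, and 458 of 28769 with no filter. Against BiTS(mut) these were 136, 51, 148 and 155. Leaving out each library, where the lone library of its group is assumed to vary like the others, gave 1 to 3, with 1 without BiTS-6 and 3 without iso-4, where Cenpw was added. In BiTS against BiTS(mut), the blocked count was 1 in the main setting, with DESeq2, RLE size factors and both filters, 2 with only the 4 libraries compared, and 0 to 2 leaving out each library. In BiTS(mut) against isotype it was 0, and 0 to 1 leaving out each library. With spike-in scaling and the block it was 0 in all 3 comparisons; the median of all genes then moved to 0.18 in BiTS against BiTS(mut) and -0.12 in BiTS(mut) against isotype, and Hjurp was at 0.77, 0.62 and 0.16. Leaving out each library with the block, Hjurp ran from 0.58 to 0.83 over isotype and Bub1 from 0.33 to 0.57. Between the sets the count was 14 and ran from 10 to 15 over the alternatives. Only spike-in scaling turned signs there, with Cenpa at -0.59, Oip5 at -0.57, Spc24 at -0.27, Plk1 at -0.30, Incenp at -0.32 and Kif2c at -0.33. The median of all genes was then -0.74. On that scale the called genes were largely others, and none of those called higher in the main setting was among them. Hjurp, Bub1 and Knl1 stayed called, joined by Mis18a, Cenpc1, Cenph, Cenpi, Cenpk, Cenpl, Cenpq, Mis12, Spc25 and Sgo2a, all lower. Cenpq, Cenpt, Cenpu, Mis12, Cdca8, Sgo2a, Plk1 and Oip5 share exonic bases with a gene on the opposite strand, 2455 of them in Sgo2a and 1069 in Cenpu.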
